A study of Mus musculus with 4 samples.

Results

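The genes described here build the blood-brain barrier, the sealed layer of endothelial cells that lines the capillaries of the brain. The list holds 10 mouse genes: 3 of tight junctions (Cldn5, Ocln, Tjp1), 6 of carriers that move solutes across the endothelium (Slc2a1, Mfsd2a, Slc38a5, Slc7a5, Slc16a1, Slco1a4) and 1 of a drug efflux pump (Abcb1a). They were selected by symbol, through the RefSeq accession attached to each array probe, out of 23461 named genes with a value on every array, and all 10 were found, on 11 probes. RNA of whole brain was measured on 4 Agilent single-colour arrays, 1 for each group. Wild-type mice and Nav1.8CreROSA26DTA mice received phosphate-buffered saline (PBS) or lipopolysaccharide (LPS, from the outer membrane of Gram-negative bacteria). The LPS groups were injected into the peritoneum at 20 mg per kg body weight, and brains were taken after 12 hours. In Nav1.8CreROSA26DTA mice the promoter of the sodium channel Nav1.8 drives Cre, which releases diphtheria toxin A from the ROSA26 locus and kills sensory neurons of that lineage, chiefly nociceptors. The deletion falls in the periphery, so the brain arrays hold no direct check of it. Whether 1 mouse or several gave the RNA of an array is not stated, and p-values therefore do not measure the spread between animals.

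Tight junctions close the gap between neighbouring endothelial cells, with claudin-5 and occludin in the membrane and the scaffold ZO-1 (Tjp1) beneath. Because the gap is closed, glucose, amino acids and lactate enter the brain only through carriers, and efflux pumps return many lipophilic compounds to the blood. Endothelial cells are a small part of the brain, and several of these genes are also used by other cells, among them Slc16a1 by oligodendrocytes and astrocytes, Slc7a5 by neurons and glia and Tjp1 by many cell types. In RNA of whole brain, fewer cells of a type and less RNA per cell cannot be told apart.

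Between 66.5% and 69.5% of the spots on each array were well above background and 0 were saturated. Of 15 neuronal markers, 15 were well above background on all 4 arrays, as were 24 of 24 pan-endothelial markers. All arrays shared 1 slide and 1 scan, with agents split by slide row and genotypes by slide column. An effect of position thus cannot be told apart from that of the group. Blood-cell markers stood far apart between arrays: set to 100 on the wild-type PBS array, the summed signal of 10 such genes was 441 on Nav1.8CreROSA26DTA PBS, 174 on wild-type LPS and 255 on Nav1.8CreROSA26DTA LPS. Levels below are log2 processed signals minus the 75th percentile of the array, so that 0 is a spot brighter than 75% of the array. They compare arrays for the same probe, never 1 gene with another. The blood-cell sum above follows its brightest probes, Hba-a1 and Itgam. Hba-a1 read 5.28 on wild-type PBS, 8.14 on Nav1.8CreROSA26DTA PBS, 6.56 on wild-type LPS and 7.23 on Nav1.8CreROSA26DTA LPS. Itgam read 5.30, 5.23, 5.11 and 5.19 in that order. Averaged effects are differences of 2 arrays against 2 with limma's standard error, and a gene was called at an adjusted p under 0.05 (Benjamini-Hochberg over 17132 genes).

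In the reported setting, 5 of the 10 genes were called lower with LPS and 0 higher. Over the 15 settings tried, which vary the processing, the model or the arrays used, 1 to 6 were called lower. Only Slc38a5 was called in all 15. The carriers Slc38a5, Slco1a4, Slc16a1 and Slc7a5 and the efflux pump Abcb1a fell, with Slc38a5 left at 18.9% and Abcb1a at 35.3% of their PBS level. Cldn5, Ocln, Tjp1, Slc2a1 and Mfsd2a did not pass the test. Over all genes tested, 10.2% were called, 4.54% lower and 5.62% higher. The 10 genes were chosen with earlier results of these data known, so these shares are no independent reference for their count. The median LPS effect was −0.37 over the 10 genes and −0.03 over all genes. The called genes of the whole array were 963 higher and 777 lower, that is 55.3% higher, a share that became 44.3% with scaling to each array's median, 67.8% after cyclic loess and 70.7% in the authors' value table. In 7 of the 10 genes both LPS arrays lay below both PBS arrays (29.4% of all genes), in 1, Slc2a1, both lay above (21.7%), and in Cldn5 and Mfsd2a the arrays overlapped. This order holds for scaled levels. Before scaling, the PBS and LPS arrays of Ocln, Tjp1, Slc16a1 and Slc7a5 overlapped, and both LPS arrays of Cldn5 and Mfsd2a were brighter. For genotype, 0 of the 10 genes were called at the adjusted threshold, against 0.409% of all genes, while 3 of the 10 had an unadjusted limma p under 0.05, as did 1747 of the 17132 genes.

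**Figure D1:**
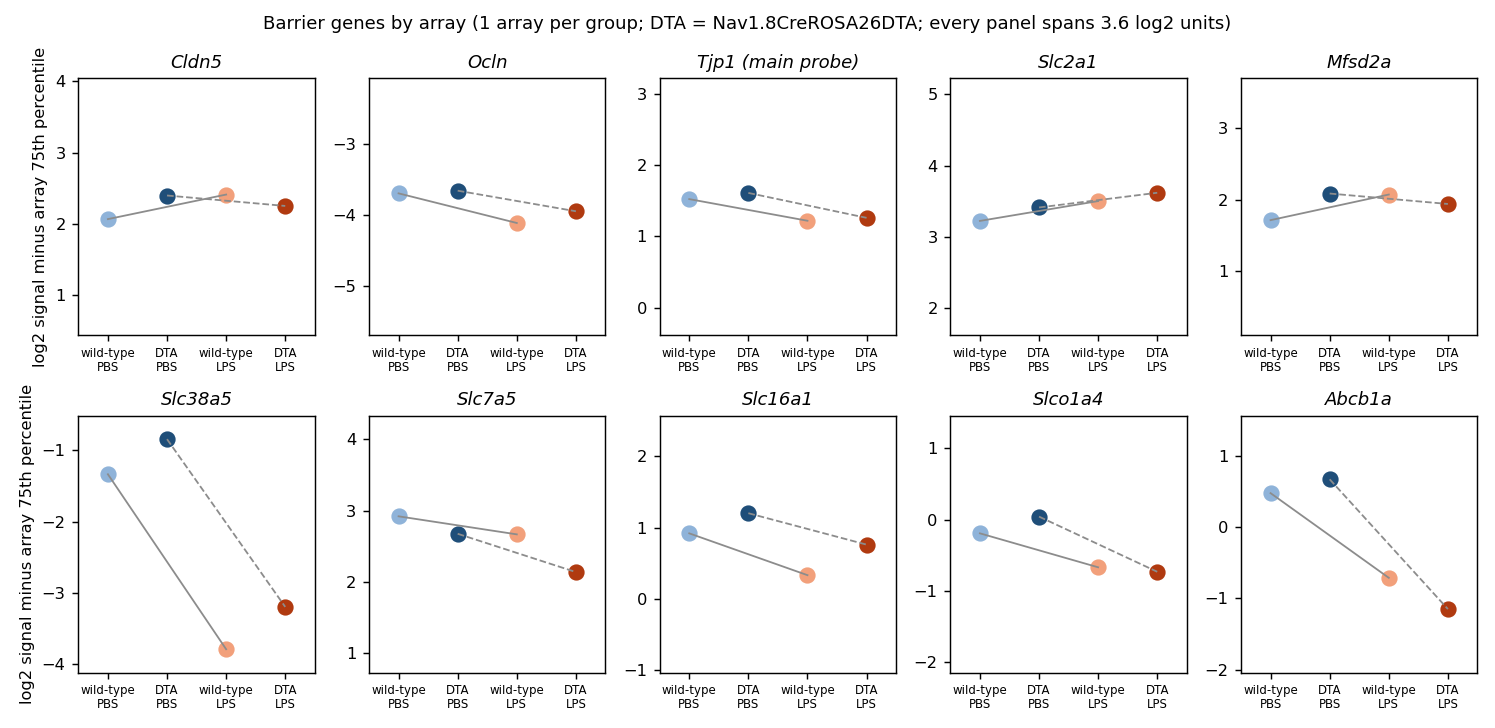
Level of each gene on the 4 arrays (log2, relative to the 75th percentile of the array; 1 point is 1 array; solid lines join the wild-type arrays and dashed lines those of Nav1.8CreROSA26DTA, written DTA). Slc38a5 and Abcb1a drop steeply in both genotypes, from −1.33 to −3.79 and from 0.48 to −0.71 in wild-type, whereas for Cldn5 and Mfsd2a the lines of the genotypes slope in opposite directions.

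Sequence just before the start of transcription was read for 4 of the 5 lowered genes, to show how unlike their promoters are (RefSeq, GRCm38.p6, the 250 bases upstream of the annotated start on the gene's strand; Slc7a5 is not shown). The windows lie at chrX:8271131-8271380, plus strand for Slc38a5, at chr5:8566841-8567090, plus strand for Abcb1a, at chr6:141856221-141856470, minus strand for Slco1a4 and at chr3:104638414-104638663, plus strand for Slc16a1. Capitals mark matches to the E-box CACGTG.
Slc38a5: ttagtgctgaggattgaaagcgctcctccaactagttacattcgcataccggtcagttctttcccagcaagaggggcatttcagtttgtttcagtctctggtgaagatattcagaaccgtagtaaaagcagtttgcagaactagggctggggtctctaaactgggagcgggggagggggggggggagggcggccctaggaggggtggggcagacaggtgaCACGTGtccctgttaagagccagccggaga
Abcb1a: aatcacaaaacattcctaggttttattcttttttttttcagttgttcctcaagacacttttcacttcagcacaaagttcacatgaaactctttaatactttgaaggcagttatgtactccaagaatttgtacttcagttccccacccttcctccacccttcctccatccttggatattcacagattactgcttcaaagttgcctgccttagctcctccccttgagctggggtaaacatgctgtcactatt
Slco1a4: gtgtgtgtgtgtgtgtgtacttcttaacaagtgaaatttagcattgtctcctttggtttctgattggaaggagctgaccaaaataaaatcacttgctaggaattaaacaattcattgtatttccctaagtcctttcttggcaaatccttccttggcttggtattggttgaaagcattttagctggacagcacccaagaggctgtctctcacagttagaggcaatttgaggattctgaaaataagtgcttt
Slc16a1: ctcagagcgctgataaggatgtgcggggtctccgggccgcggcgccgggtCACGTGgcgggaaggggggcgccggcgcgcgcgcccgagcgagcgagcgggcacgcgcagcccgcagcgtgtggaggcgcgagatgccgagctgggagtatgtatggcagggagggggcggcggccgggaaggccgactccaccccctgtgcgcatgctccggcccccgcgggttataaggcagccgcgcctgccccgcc
The Abcb1a and Slco1a4 windows held 0 CpG dinucleotides and were 40.4% and 39.2% G or C, against a median of 52.4% and 6 CpG over all RefSeq promoters of the same length. Slc38a5 had 8 CpG, near that median, and Slc16a1 37, at 55.2% and 76.4% G or C. Whether CpG content bears on the LPS effect was not tested. The genes that were not called had 12 to 22 CpG in their windows. Of 4 motifs searched on both strands, the E-box CACGTG occurred 30 to 25 bases upstream of the start in Slc38a5 and 200 to 195 bases upstream in Slc16a1, and in 6.02% of the 32851 promoters searched. No match was found in any of the 10 windows of the 9 genes for TCF/LEF CTTTGAT (3.21% of promoters), the NF-kB consensus (7.25%) or ETS CCGGAAG (6.91%), which says only that these letters are not in these windows.

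Among the junction genes, none passed the test for LPS in the reported setting. Cldn5, the claudin that seals brain capillaries, read 2.07 in wild-type PBS, 2.40 in Nav1.8CreROSA26DTA PBS, 2.41 in wild-type LPS and 2.25 in Nav1.8CreROSA26DTA LPS. The PBS and LPS arrays overlapped, with wild-type PBS lowest and the other three close together. The averaged effect was 0.10 ± 0.12 (adjusted p = 0.688), with a 95% interval of −0.18 to 0.38. Without the wild-type PBS array it was −0.07.

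Ocln encodes occludin. Its unscaled signals were low, 36.6 to 47.2, though well above background on all 4 arrays. Its levels were −3.70 in wild-type PBS, −3.66 in Nav1.8CreROSA26DTA PBS, −4.11 in wild-type LPS and −3.95 in Nav1.8CreROSA26DTA LPS. Both LPS arrays were lower, by −0.42 and −0.29, but the averaged −0.35 ± 0.24 did not pass (adjusted p = 0.443; 95% interval −0.90 to 0.20). Before scaling, its Nav1.8CreROSA26DTA signals were 40.7 with PBS and 47.1 with LPS, so in that genotype the lower level appears only after scaling.

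Tjp1, the gene of the scaffold ZO-1, has 2 probes for the same RefSeq transcript, and they differed in direction. The brighter probe, used for the gene, read 1.52 in wild-type PBS, 1.61 in Nav1.8CreROSA26DTA PBS, 1.22 in wild-type LPS and 1.26 in Nav1.8CreROSA26DTA LPS. Before scaling, its Nav1.8CreROSA26DTA signals were 1569 with PBS and 1739 with LPS, so in that genotype the lower level appears only after scaling. Once scaled, both of its LPS arrays were lower, with an averaged effect of −0.33 ± 0.10 (adjusted p = 0.0660). It passed with scaling to the median (−0.38, adjusted p = 0.0335) and without the filter on dim probes (adjusted p = 0.0144), which brings the genes called lower to 6 in each of these settings. The dimmer probe read −1.08, −1.30, −1.07 and −0.97 in the same order of groups, with both LPS arrays higher. Fitted as a row of its own it gave 0.17 ± 0.14 (adjusted p = 0.504), and the mean of both probes −0.08. No single direction for Tjp1 is therefore given by these arrays.

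In the wider list of 26 junction genes 24 were tested, 5 rose and 0 fell, with a median of 0.05. Cdh5, the cadherin of endothelial adherens junctions, rose by 1.05 ± 0.14 (adjusted p = 0.00171), higher in both genotypes, by 1.24 and 0.86. F11r, which encodes the junctional adhesion molecule JAM-A, rose by 0.77 ± 0.12 (adjusted p = 0.00348). Lsr, the receptor angulin-1 of contacts between 3 cells, rose by 0.61 ± 0.12, and the endothelial adhesion molecule Esam by 0.58 ± 0.14. The fifth was the catenin gene Ctnna1 (0.41 ± 0.10), named after its value was seen. With an array left out, 0 to 2 genes of this list stayed past the threshold. The call of Cdh5 ended without the wild-type LPS array (adjusted p = 0.0557), that of F11r without any array but Nav1.8CreROSA26DTA PBS, that of Lsr without any array but Nav1.8CreROSA26DTA LPS, and that of Esam without any of the 4.

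Slc2a1 encodes GLUT1, the glucose carrier of the barrier. It read 3.23 in wild-type PBS, 3.42 in Nav1.8CreROSA26DTA PBS, 3.50 in wild-type LPS and 3.62 in Nav1.8CreROSA26DTA LPS. Both LPS arrays stood above both PBS arrays, by 0.28 in wild-type and 0.21 in Nav1.8CreROSA26DTA. The averaged 0.24 ± 0.09 did not pass (adjusted p = 0.134; 95% interval 0.04 to 0.44), although with quantile normalization it did (0.32, adjusted p = 0.0331).

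Mfsd2a carries lysophosphatidylcholine with docosahexaenoic acid into the brain and restrains transport by vesicles across the endothelium. Its levels were 1.71 in wild-type PBS, 2.09 in Nav1.8CreROSA26DTA PBS, 2.07 in wild-type LPS and 1.94 in Nav1.8CreROSA26DTA LPS. The order of the arrays was that of Cldn5 apart from near ties, with wild-type PBS lowest and overlap between PBS and LPS. The averaged effect was 0.11 ± 0.12 (adjusted p = 0.670; 95% interval −0.18 to 0.39). In the list of 18 transcytosis and caveola genes, 2 fell and 0 rose, with a median of −0.08. They were the lipoprotein receptor Lrp8 (−0.57 ± 0.12) and Fcgrt, the receptor that recycles immunoglobulin G (−0.55 ± 0.14). Both calls ended without any of the 4 arrays in turn.

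Slc38a5, which encodes the amino acid carrier SNAT5, fell the most. Its unscaled signals were 243 in wild-type PBS, 287 in Nav1.8CreROSA26DTA PBS, 45.9 in wild-type LPS and 79.4 in Nav1.8CreROSA26DTA LPS. In levels these were −1.33, −0.84, −3.79 and −3.19. Both LPS arrays lay far below both PBS arrays, and all 4 spots were well above background. The averaged effect was −2.40 ± 0.17 (adjusted p = 2.2e-05), or 5.29-fold lower, the 11th most lowered of 17132 genes. The fall was −2.45 in wild-type and −2.35 in Nav1.8CreROSA26DTA. It was called in all 15 settings tried, at −2.70 to −2.11 with an array left out and −1.65 with normexp background correction.

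The large neutral amino acid carrier Slc7a5, or LAT1, fell slightly. It read 2.92 in wild-type PBS, 2.68 in Nav1.8CreROSA26DTA PBS, 2.67 in wild-type LPS and 2.14 in Nav1.8CreROSA26DTA LPS. Both LPS arrays were below both PBS arrays, wild-type LPS by very little. Before scaling, the Nav1.8CreROSA26DTA signals of Slc7a5 were nearly equal, 3291 with PBS and 3204 with LPS. The unscaled wild-type LPS signal, 4030, lay above that of Nav1.8CreROSA26DTA PBS. The averaged effect was −0.39 ± 0.10 (adjusted p = 0.0397), and the call ended without any of the 4 arrays in turn, where the effect ran from −0.66 to −0.13. It was past the threshold in 6 of 15 settings, and not with cyclic loess (adjusted p = 0.0889), the authors' value table (0.0932), the mean of a gene's probes (0.0517), agent alone (0.310) or without the intensity trend (0.260). Slc3a2, the heavy chain with which LAT1 forms its dimer, was at 0.11 ± 0.10 (adjusted p = 0.591).

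Slc16a1, the lactate and ketone carrier MCT1, read 0.92 in wild-type PBS, 1.20 in Nav1.8CreROSA26DTA PBS, 0.33 in wild-type LPS and 0.76 in Nav1.8CreROSA26DTA LPS. Wild-type LPS was lowest, and both LPS arrays lay below both PBS arrays. It fell by 0.51 ± 0.10 on the log2 scale (adjusted p = 0.0137), an effect that ran from −0.73 to −0.30 with an array left out and then passed in none of the 4 fits. The call also ended with agent alone (adjusted p = 0.172) and without the intensity trend (adjusted p = 0.158). Before scaling, its Nav1.8CreROSA26DTA signals were 1184 with PBS and 1232 with LPS, so in that genotype the lower level appears only after the arrays are set to 1 percentile. Oligodendrocyte markers were also low on the wild-type LPS array, with a summed signal of 69.1 against 100 on wild-type PBS, 117 on Nav1.8CreROSA26DTA PBS and 133 on Nav1.8CreROSA26DTA LPS, and their part in the Slc16a1 values was not tested. Bsg, the chaperone basigin that brings MCT1 to the membrane, was at −0.31 ± 0.10 (adjusted p = 0.0955). Slc3a2 and Bsg were named as partners of list members after their values were seen.

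Slco1a4 encodes Oatp1a4, a carrier of organic anions such as bile acids and steroid conjugates. It read −0.19 in wild-type PBS, 0.04 in Nav1.8CreROSA26DTA PBS, −0.67 in wild-type LPS and −0.73 in Nav1.8CreROSA26DTA LPS. The LPS arrays were both lower and lay close together. The averaged effect was −0.62 ± 0.13 (adjusted p = 0.0138), and −0.74 to −0.51 with an array left out, where it passed in none of the 4 fits. The call also ended without the intensity trend (adjusted p = 0.149).

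Of the 35 solute carriers of barrier endothelium, all tested, 11 fell and 1 rose, with a median of −0.23. Slc38a5 and the 3 other called carriers above are among the 11. Slc16a4, of the same family as MCT1, also fell (adjusted p = 0.00364), with a difference of −1.61 in wild-type. Its spot was not well above background on Nav1.8CreROSA26DTA LPS, so no averaged size is given, and the call ended without any array but wild-type LPS. Slco1c1, the thyroxine carrier Oatp1c1 of the barrier, fell by 1.60 ± 0.12 (adjusted p = 4.6e-05), with −1.50 in wild-type and −1.70 in Nav1.8CreROSA26DTA, and the call held without each array. Slc22a8, the organic anion transporter OAT3, fell by 1.53 ± 0.21 (adjusted p = 0.00173), a call that ended without the Nav1.8CreROSA26DTA LPS array (adjusted p = 0.0546). The carrier that rose was Slc52a3, which transports riboflavin (0.91 ± 0.21), named after its value was seen. With an array left out, 3 to 6 carriers fell and 0 rose, and the median lay between −0.27 and −0.19.

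Abcb1a encodes P-glycoprotein, the efflux pump that keeps many drugs out of the brain. Its levels were 0.48 in wild-type PBS, 0.67 in Nav1.8CreROSA26DTA PBS, −0.71 in wild-type LPS and −1.15 in Nav1.8CreROSA26DTA LPS. Both LPS arrays were well below both PBS arrays, and Nav1.8CreROSA26DTA LPS was the lowest. The averaged effect was −1.50 ± 0.15 (adjusted p = 0.000292), or 2.83-fold lower, the 54th most lowered gene. It was called in 14 of 15 settings, with −1.72 to −1.28 when an array was left out, and missed the threshold without the intensity trend (adjusted p = 0.0699). Abcb1b, the closely related second P-glycoprotein gene of rodents, was at 0.09 ± 0.15 (adjusted p = 0.788), and was named after its value was seen. Of 11 ABC transporters 2 fell and 0 rose, with a median of −0.03. The other was Abcc4, the pump MRP4, at −0.85 ± 0.14 (adjusted p = 0.00400), a call that ended without any array but wild-type LPS.

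**Figure D2:**
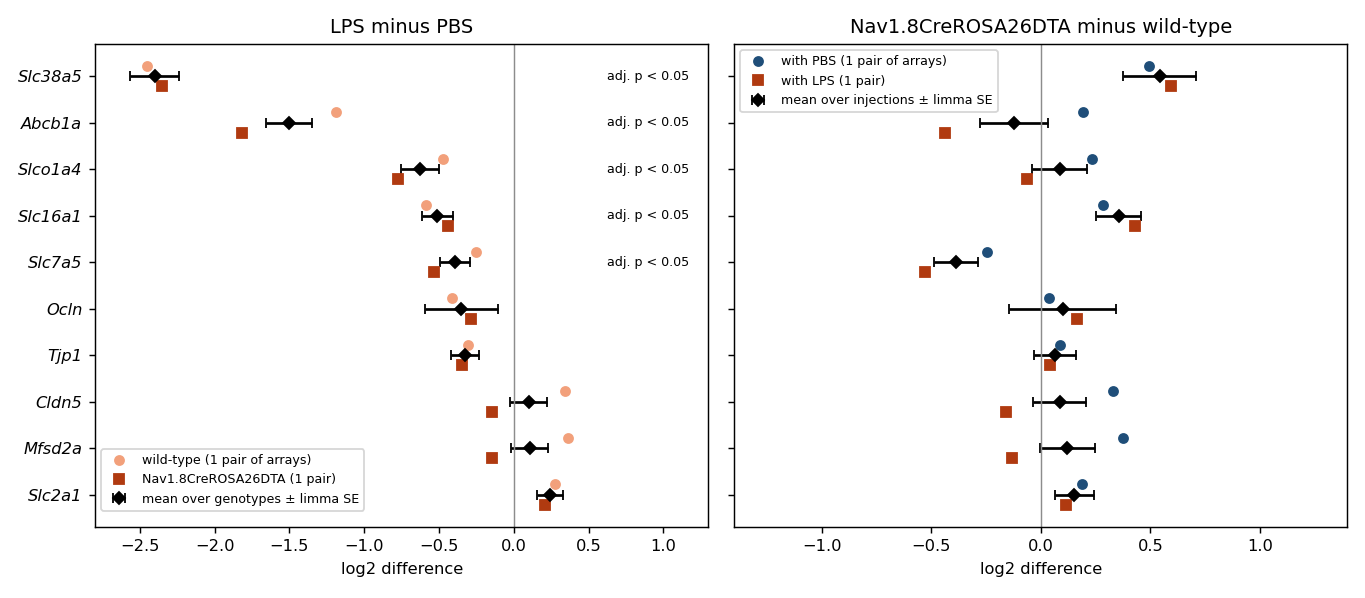
Log2 differences of the 10 genes, LPS minus PBS at left and Nav1.8CreROSA26DTA minus wild-type at right. Diamonds are averaged effects with limma's standard error (2 arrays against 2), and circles and squares are single pairs of arrays without error. The 5 genes marked at left have an adjusted p under 0.05. At right none has, although Slc38a5 and Slc16a1 lie above 0 and Slc7a5 below 0 with either injection.

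Endothelial markers moved in both directions. Of 24 pan-endothelial markers 6 rose and 6 fell, with a median of 0.15. With an array left out, 2 to 4 rose, fewest without wild-type LPS, and 1 to 3 fell, 1 without each of the other three. Their summed signal, again with wild-type PBS at 100, was 95.2 on Nav1.8CreROSA26DTA PBS, 102 on wild-type LPS and 95.4 on Nav1.8CreROSA26DTA LPS. This sum follows its brightest probes, Cd34 and Egfl7 (levels 4.72 and 3.68 on wild-type PBS), neither of them called. It is therefore no measure of endothelial content. The sialomucin Emcn rose by 1.43 ± 0.11 and the adhesion molecule Icam2 by 1.09 ± 0.13. The phosphatase Ptprb, or VE-PTP, fell by 1.57 ± 0.13 and the angiopoietin receptor Tek by 1.17 ± 0.23, the latter call ending without any of the 4 arrays. Of 19 brain endothelial identity markers 6 rose and 4 fell, with a median of 0.01, against 5 and 2 to 3 with an array left out. Ctla2a rose by 4.46 ± 0.09, Pglyrp1, a peptidoglycan-binding protein, by 3.11 ± 0.12 and Ly6a by 2.46 ± 0.09, while Itm2a fell by 2.13 ± 0.12. These 4 calls held without each array.

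Wnt signals from neurons and glia maintain barrier properties in endothelium, and their genes were examined with the transcription factors of the barrier. Of 26 genes 5 fell and 1 rose, with a median of −0.23. On 3 arrays 0 rose and 1 fell, or 2 without Nav1.8CreROSA26DTA LPS. The ligand gene Wnt7a fell by 1.12 ± 0.14 (adjusted p = 0.00117), with −1.07 in wild-type and −1.16 in Nav1.8CreROSA26DTA. Ndp, the norrin ligand, fell by 0.72 ± 0.13 and Reck, a co-receptor for WNT7, by 0.63 ± 0.11, whereas Apcdd1 rose by 0.90 ± 0.16. The call of Wnt7a held without each array, and those of Ndp, Reck and Apcdd1 ended without any of the 4.

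Markers of inflamed endothelium rose in 9 of 13 cases and fell in 0, with a median of 1.22, and 5 rose without the Nav1.8CreROSA26DTA LPS array. Ch25h, which encodes cholesterol 25-hydroxylase, rose by 4.85 ± 0.32, the leukocyte adhesion molecule Icam1 by 2.88 ± 0.13, Lrg1 by 2.65 ± 0.11 and the protein C receptor Procr by 2.47 ± 0.18, and these 4 calls held without each array. The list's summed signal was 131 on Nav1.8CreROSA26DTA PBS, 225 on wild-type LPS and 245 on Nav1.8CreROSA26DTA LPS.

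Other cells of vessels and membranes were followed by marker lists. Pericyte and smooth muscle markers had a median of 0.02 (1 of 16 up, 2 down) and summed signals of 130, 110 and 108 in the same order. Cspg4, or NG2, fell by 0.84 ± 0.13 and the pericyte gene Rgs5 by 0.50 ± 0.11, and the peptidase gene Anpep rose by 0.45 ± 0.12. On 3 arrays 0 rose and 0 to 3 fell, 3 without wild-type PBS. Arachnoid and fibroblast markers had a median of 0.04 (3 of 15 up, 5 down) and summed signals of 188, 145 and 198. The collagen gene Col3a1 rose by 1.85 ± 0.25 and the proteoglycan gene Dcn by 1.82 ± 0.18, while Fmod (−1.79 ± 0.29) and the exporter gene Slc47a1 fell. The call of Slc47a1 held without each array, at −2.30 to −1.70. Leaving out wild-type PBS gave this list a median of −0.54 and leaving out Nav1.8CreROSA26DTA PBS 0.30, and it was negative without either LPS array. The counts ran from 0 up without either LPS array to 5 up without Nav1.8CreROSA26DTA PBS, and from 1 down without Nav1.8CreROSA26DTA LPS to 5 down without wild-type PBS. Choroid plexus markers had a median of 0.34 (2 of 13 up, 0 down), which was −0.02 without wild-type PBS, and summed signals of 128, 107 and 144. The choroid plexus sum follows its brightest probes, Enpp2 and Slc39a12 (levels 4.17 and 1.32 on wild-type PBS), neither of them called. It is therefore no measure of choroid plexus content. The water channel Aqp1 rose by 4.15 ± 0.22, and the claudin gene Cldn2 also rose (adjusted p = 0.00999) but was well above background on the LPS arrays alone. Of the 16 choroid plexus genes listed 3, among them Ttr, were well above background on fewer than 2 arrays and not tested.

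Among cells of the brain tissue, the median was −0.22 for 15 astrocyte markers (2 up, 5 down), −0.09 for 15 neuronal (0 up, 2 down), −0.27 for 15 oligodendrocyte (1 up, 2 down) and −0.42 for 15 microglial markers (2 up, 6 down). The astrocyte filament gene Gfap rose by 1.89 ± 0.14, and Kcnj10, Fgfr3 and the connexin gene Gja1 fell by 0.58 ± 0.09, 0.48 ± 0.13 and 0.46 ± 0.12. Of the microglial receptors Gpr34 (−3.78 ± 0.24), P2ry12 (−2.73 ± 0.15) and Trem2 (−1.64 ± 0.19) fell, while the complement gene C1qa rose by 1.07 ± 0.09. The calls of Gfap and of these 4 microglial genes held without each array. The neuronal genes Tubb3 and Map2 fell by 0.58 ± 0.11 and 0.34 ± 0.09. Opalin and Aspa of oligodendrocytes fell by 1.03 ± 0.23 and 0.93 ± 0.12, and Mobp rose by 0.54 ± 0.15 (adjusted p = 0.04998). With an array left out, the effect ran from −1.84 to −0.23 for Opalin and from −1.10 to −0.76 for Aspa. That of Mobp ran from −0.29 to 1.38, so its sign was not kept. Fits on 3 arrays gave 1 astrocyte marker up and 0 to 2 down, 0 neuronal up and 0 to 1 down, and 0 oligodendrocyte up and 0 to 2 down. The oligodendrocyte median ran from −0.55 without Nav1.8CreROSA26DTA LPS to 0.18 without wild-type LPS. The median of 10 blood-cell markers was 0.07 (2 up, 0 down), and ran from −1.06 without wild-type PBS to 1.15 without Nav1.8CreROSA26DTA PBS. Those 2 were the neutrophil genes S100a8 (3.07 ± 0.62) and S100a9 (3.05 ± 0.64), whose calls ended without any array but Nav1.8CreROSA26DTA PBS. Without that array 4 blood-cell markers rose, and 0 without any other. The part of these cells in the barrier genes was not tested.

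**Figure D3:**
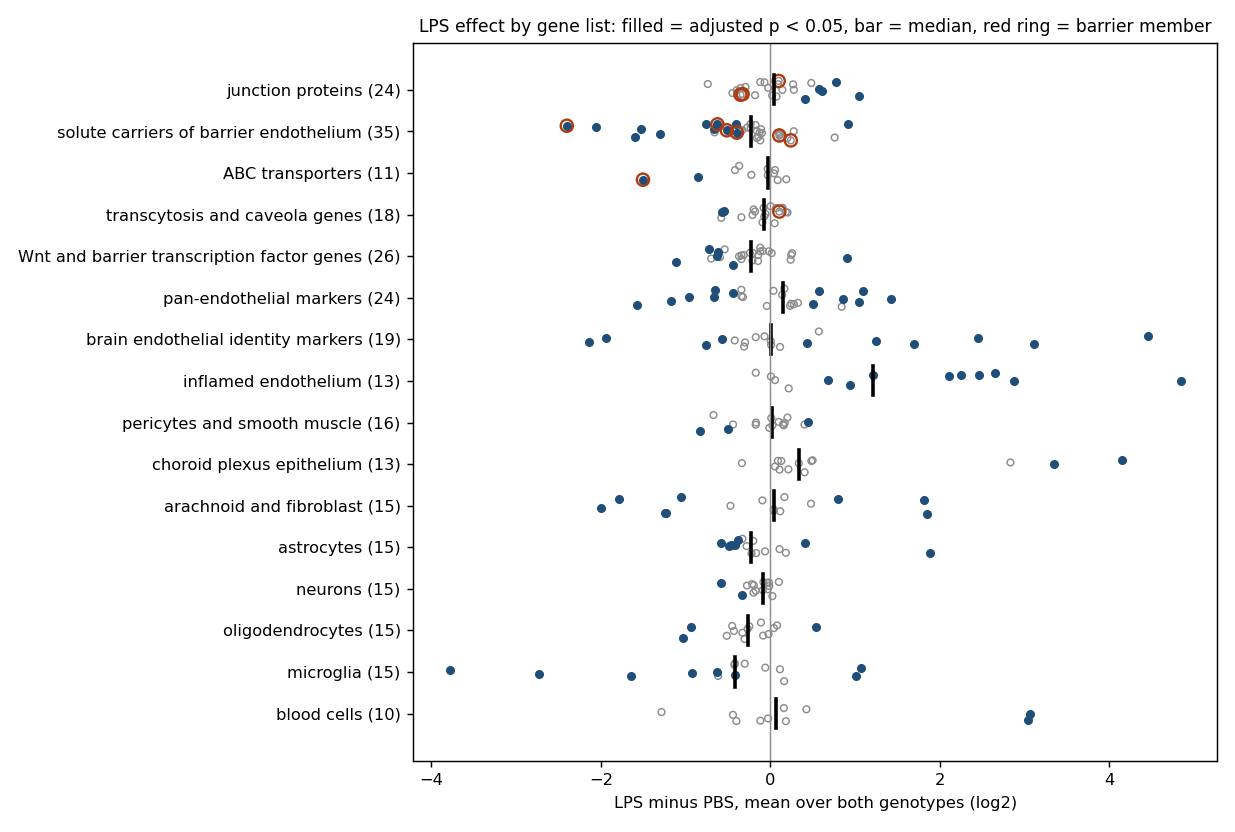
Averaged LPS effect (log2) of every tested gene, by list, with the number tested in brackets; filled points have an adjusted p under 0.05, bars are medians and red rings are the 10 barrier genes. Slc38a5 and Abcb1a lie at the low end of their lists, at −2.40 and −1.50, and the inflamed endothelium list lies mostly to the right, with a median of 1.22.

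In single pairs of arrays no test is possible. Slc38a5 and Abcb1a were the only 2 of the 10 genes at least 2-fold changed, lower in wild-type and in Nav1.8CreROSA26DTA alike. At least 2-fold lower were 0.618% of all genes measured in wild-type and 1.42% in Nav1.8CreROSA26DTA, and at least 2-fold higher 3.41% and 3.1%. The largest differences between the responses were those of Abcb1a, at −1.82 in Nav1.8CreROSA26DTA and −1.19 in wild-type, and of Mfsd2a and Cldn5. Cldn5 was 0.34 higher with LPS in wild-type and −0.15 in Nav1.8CreROSA26DTA, and Mfsd2a 0.36 higher and −0.15. Before scaling, both were brighter with LPS in Nav1.8CreROSA26DTA too, Cldn5 at 2711 with PBS and 3459 with LPS and Mfsd2a at 2183 and 2785, so the negative sign there appears only after scaling. These differences of response, −0.63, −0.51 and −0.49, were under 2-fold for all 10 genes, a size that 2.5% of all measured genes reached. The response was the more positive in Nav1.8CreROSA26DTA for 3 of the 10 genes, against 45.1% of all genes tested.

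Between Nav1.8CreROSA26DTA and wild-type, none of the 10 genes was called, and none differed 2-fold with PBS or with LPS. Over all measured genes 1.21% were at least 2-fold higher and 0.415% lower in Nav1.8CreROSA26DTA with PBS, and 0.829% and 0.369% with LPS. Slc38a5 was higher in Nav1.8CreROSA26DTA by 0.49 with PBS and 0.59 with LPS, averaging 0.54 ± 0.17 (adjusted p = 0.259; 95% interval 0.17 to 0.92). Slc16a1 was higher by 0.28 and 0.43, averaging 0.36 ± 0.10 (adjusted p = 0.230). Slc7a5 was lower, at −0.24 and −0.53, averaging −0.39 ± 0.10 (adjusted p = 0.173).

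These 3 were the genes with an unadjusted p under 0.05. Slc7a5 passed with normexp (adjusted p = 0.0219), and Slc7a5 and Slc16a1 passed without the filter on dim probes (adjusted p = 0.00343 and 0.0324). The other members averaged between −0.12 and 0.15. For Cldn5, Mfsd2a, Slco1a4 and Abcb1a the difference was positive with PBS and negative with LPS. Oligodendrocyte markers moved with genotype too, with a median of 0.68 and 4 of 15 called higher. Arachnoid and fibroblast markers had a median of 0.45 (0.97 with PBS, −0.07 with LPS), with 1 of 15 called, Cldn11, which is also 1 of the 4 oligodendrocyte genes, and blood-cell markers 1.73 (2.34 and 0.63). Their part in the genotype values was not tested.

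The genes whose 4 levels, centred on their mean, ran closest to the most lowered members were sought over all tested genes, as a description across 4 arrays. Nearest to Abcb1a were Trem2, a receptor of microglia (distance 0.22 log2 units; LPS effect −1.64), Omd (0.24; −1.36) and Gkn3 (0.24; −1.59). Nearest to Slc38a5 were the kinase gene Txk (0.35), the brain endothelial marker Itm2a (0.38; −2.13) and Dhrs2 (0.48). Txk and Dhrs2 were not well above background on either LPS array and are given without an effect.

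**Figure D4:**
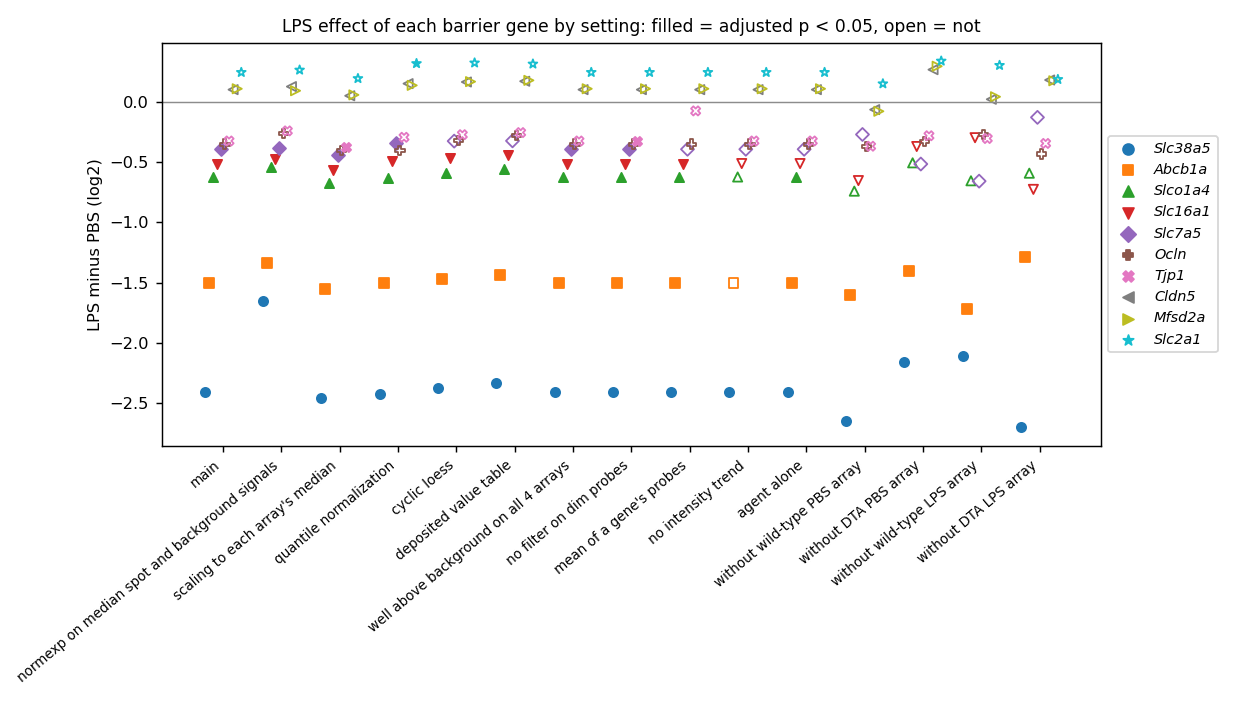
Averaged LPS effect (log2) of each of the 10 genes under the reported setting, named main, and 14 alternatives; filled symbols have an adjusted p under 0.05. Slc38a5 is filled throughout, at −2.70 to −1.65, and Abcb1a in all settings but the one without intensity trend, while Slco1a4, Slc16a1 and Slc7a5 are open whenever an array is left out.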

How the data were processed

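The authors deposited 1 Agilent Feature Extraction file per array. Per the submitters' processing notes the version was 11.0.1.1, whereas the file headers name 12.0.3.1. The intensity used, the processed signal, is background-subtracted and spatially detrended within an array, per the file headers. Spot flags are 0 or 1. The authors' value table, also an intensity, equals the processed signal times 1 factor per array (1.57 to 2.09), a factor not explained in the sources used here. Its column medians were 97.2, 91.4, 103 and 102 (wild-type PBS, Nav1.8CreROSA26DTA PBS, wild-type LPS, Nav1.8CreROSA26DTA LPS).

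Control spots and 81 to 96 outlier spots per array were dropped, log2 signals were set against each array's 75th percentile (612, 514, 634 and 726 in that order), and spots of a probe were averaged. RefSeq accessions named 33767 of 56605 probes (GRCm38.p6 table). For each gene 1 probe was kept, that with most arrays well above background and then the brightest, and the gene was tested if 2 or more arrays passed. All 10 members passed on 4 arrays, each on 1 spot per probe. Over probes printed 10 times, the median SD between spots was 0.0423 to 0.0476 (log2), and array number limits precision beyond that.

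Limma 3.58.1 in R 4.3.3 fitted genotype and agent over 17132 genes (eBayes with intensity trend, two-sided), with 1 residual and 7.99 prior degrees of freedom. The 1 residual of a gene is the difference of its LPS responses between genotypes, so the fit counts that difference as error. The fit was tested on simulated data, but no outcome of that test is given here. Normexp used median spot signals, since the files used here hold no mean spot signal. Named from each gene list were the up to 4 called genes of largest effect, beside the members and exceptions stated. The members and lists were chosen with earlier results of these data known.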

Additional observations from a re-analysis of the deposited data

Results flagged for a closer look

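Cldn5 and Mfsd2a were marked because LPS moved them in opposite directions in the 2 genotypes, each on 1 pair of arrays. Cldn5 differed by 0.34 in wild-type and −0.15 in Nav1.8CreROSA26DTA, and Mfsd2a by 0.36 and −0.15. Before scaling, the Nav1.8CreROSA26DTA signals of both genes were higher with LPS. Both Nav1.8CreROSA26DTA differences were −0.06 with the authors' value table, and −0.07 and −0.08 with cyclic loess. The difference between the genotypes was not tested, since each group holds 1 array.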

How the results depend on the processing

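With 1 array a group, limits come first from the number of arrays. The fit of genotype and agent compares LPS with PBS within each genotype, and agent alone is the fit without that term. No replicate numbers pair the arrays. With an array left out, LPS was fitted alone on 3 arrays, the lone array assumed to vary like the others. The genes called higher were then 370 to 514, those called lower 70 to 187, and the members called lower 2 each time, Slc38a5 and Abcb1a, with 0 called higher. Genotype then reduces to the intact pair, with no test. Without the wild-type PBS array, the LPS effects of Cldn5 (−0.0666) and Mfsd2a (−0.0803) turned negative, and their highest values, without the Nav1.8CreROSA26DTA PBS array, were 0.264 and 0.293. The dimmer Tjp1 probe, an alternative added after seeing the data, gave 0.17 for LPS and −0.0606 for genotype, opposite to the brighter one.

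Genes called lower with LPS were 1192 with scaling to the median, 463 with cyclic loess and 433 with the deposited table. Without the dim filter they were 1567 (1583 higher), without the intensity trend 48 (382 higher) and with agent alone 278 (597 higher). Members called lower were 1 without the trend, 3 with agent alone, and 6, with Tjp1, under median scaling and without the dim filter, and 1 member, Slc2a1, was called higher with quantile normalization. Genotype calls were 383 with normexp, 150 with median scaling, 241 with quantile normalization, 29 with cyclic loess, 28 with the deposited table, 958 without the dim filter, 28 with the mean of a gene's probes and 0 without the trend. Members called for genotype were 1 with normexp and 2 without the dim filter. The cause of these changes was not tested. Over all settings other than single probes, the LPS effects of Slc38a5, Abcb1a, Slco1a4, Slc16a1, Slc7a5, Ocln and Tjp1 stayed negative and that of Slc2a1 positive. Of 52 list genes named by rule, 22 were past the threshold without each of the 4 arrays.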
